A study of Mus musculus with 22 samples.

Results

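Among 22 mouse liver libraries, 10 were split within their groups by the level of Arntl, the gene of the clock activator BMAL1. The 4 high livers were chosen by an Arntl level above 20 CPM (counts-per-million, a gene's count scaled to all counts in genes), against 6 livers below it: WT-4weeks 1 against WT-4weeks 2 and 3, KO-4weeks 1 against KO-4weeks 2 and 3, and KO-8weeks 1 and 2 against KO-8weeks 5 and 6. The high class was thus replicate 1 in both 4-week groups and replicates 1 and 2 in KO-8weeks. At 4 weeks, Arntl class and replicate number cannot be told apart. The other 12 libraries were not split: KO-8weeks 3 and 4, 4 WT livers of 8 weeks, and 3 WT and 3 KO livers of 20 months. Because a measured value chose the livers, every high-minus-low difference in the 10 livers is given as a description without a test. Tests are given for differences between groups in that contrast, for the 12 livers outside the split, and for genotype.

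The livers came from male C57BL/6 mice, taken as frozen tissue, with poly(A) RNA sequenced from each. WT-4weeks mice were wild type and 4 weeks old, KO-4weeks mice were Slc10a1-/- and 4 weeks old, and KO-8weeks mice were Slc10a1-/- and 8 weeks old. Slc10a1 encodes NTCP, the main importer of bile acids at the blood-facing membrane of hepatocytes, and the knockout is carried by the whole animal. The labels give no time of day, feeding state, litter or cage, and p-values measure only the spread between these samples. Slc10a1 stood at 591 to 701 CPM in the WT-4weeks livers, 108 to 253 CPM in the KO-4weeks livers and 49.4 to 93.8 CPM in the 6 KO-8weeks livers, against 435 to 470 CPM in the WT-8weeks livers. KO-8weeks 3 and 4, which the split left out, stood apart from the other KO-8weeks livers: Elovl3, a fatty acid elongase, was at 121 and 211 CPM there and at 0.0867 to 0.254 CPM in KO-8weeks 1, 2, 5 and 6. Counts in genes were 5496425 to 6956124 at 4 weeks and 21366245 to 23927018 at 8 weeks in the KO-8weeks group, and all levels below Arntl's own split values are CPM scaled by TMM factors of all 22 libraries.

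The liver clock is a loop of transcription factors. BMAL1 and its partner CLOCK (or NPAS2) bind E-boxes and switch on Per, Cry, Nr1d, Dbp and many output genes, whose products PER and CRY then shut BMAL1 and CLOCK off. The REV-ERB repressors, made from Nr1d1 and Nr1d2, and the ROR activators compete for elements in the Arntl promoter, so that in liver Arntl is high at the time of day when Dbp and the Nr1d genes are low. Feeding and fasting also set the phase of the liver clock and move many metabolic genes on their own.

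The promoters of 4 clock genes show the elements of this loop. They are RefSeq windows of 300 bases on GRCm38.p6, from 250 bases before the transcription start to 50 after it, and the capitals mark the matches. For Arntl (chr7:113207261-113207560, plus strand) the capitals are the RORE, the element that REV-ERB and ROR proteins bind. For Ciart (chr3:95882179-95882478, minus strand) and Cry1 (chr10:85185005-85185304, minus strand) they are CACGTG, the E-box, and for Per3 (chr4:151044616-151044915, minus strand) TTATGTAA or TTACGTAA, forms of the D-box that DBP, TEF, HLF and NFIL3 bind.
Arntl: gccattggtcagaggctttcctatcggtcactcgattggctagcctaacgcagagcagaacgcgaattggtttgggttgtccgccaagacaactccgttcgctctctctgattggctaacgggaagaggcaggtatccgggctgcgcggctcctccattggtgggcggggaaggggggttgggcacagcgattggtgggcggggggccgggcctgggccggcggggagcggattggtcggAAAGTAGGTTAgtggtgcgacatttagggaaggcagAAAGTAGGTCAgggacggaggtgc
Ciart: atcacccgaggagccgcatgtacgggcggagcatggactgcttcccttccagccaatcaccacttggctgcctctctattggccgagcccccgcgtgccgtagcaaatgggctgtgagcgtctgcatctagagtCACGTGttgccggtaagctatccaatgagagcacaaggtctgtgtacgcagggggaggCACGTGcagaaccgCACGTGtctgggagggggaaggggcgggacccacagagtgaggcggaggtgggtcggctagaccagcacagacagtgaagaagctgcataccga
Per3: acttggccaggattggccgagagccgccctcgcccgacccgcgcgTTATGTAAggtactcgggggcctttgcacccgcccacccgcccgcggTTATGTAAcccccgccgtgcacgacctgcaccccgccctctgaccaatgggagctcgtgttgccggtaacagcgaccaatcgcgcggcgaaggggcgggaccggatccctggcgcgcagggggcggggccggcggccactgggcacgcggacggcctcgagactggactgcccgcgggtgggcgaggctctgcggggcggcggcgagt
Cry1: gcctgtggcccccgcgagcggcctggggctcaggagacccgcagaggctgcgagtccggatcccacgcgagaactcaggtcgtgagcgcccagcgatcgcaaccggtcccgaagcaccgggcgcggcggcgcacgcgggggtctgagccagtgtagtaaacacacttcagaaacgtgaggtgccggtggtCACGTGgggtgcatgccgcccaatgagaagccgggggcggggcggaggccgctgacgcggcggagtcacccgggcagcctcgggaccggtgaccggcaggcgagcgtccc

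The RefSeq table has another, overlapping Arntl window, and the one that starts further downstream is shown. The Arntl window held 2 matches, the first beginning 10 bases before the start. The Ciart window held 3 E-boxes, beginning 116, 58 and 44 bases before the start, the Per3 window 2 D-boxes, beginning 205 and 158 bases before it, and the Cry1 window 1 E-box, beginning 60 bases before it. Searched on both strands, CACGTG was in 7.15% of the 32851 promoter windows of the table, the D-box forms in 1.06% and this RORE form in 0.0609%. Of the 16 clock genes with a window, 5 held CACGTG (Cry1, Per1, Ciart, Bhlhe41 and Tef), 1 the D-box forms (Per3) and 1 this RORE form (Arntl). No match lay in the Dbp, Nr1d1 or Nr1d2 windows, which says only that these letters are not in those windows.

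Arntl divided the 10 livers with a wide gap. In plain CPM, without TMM, the high livers stood at 37.1 in WT-4weeks 1, 48.7 in KO-4weeks 1, and 40.0 and 44.8 in KO-8weeks 1 and 2. The low livers stood at 4.53 and 2.73 in WT-4weeks 2 and 3, at 1.39 and 9.28 in KO-4weeks 2 and 3, and at 4.88 and 4.26 in KO-8weeks 5 and 6. The livers nearest the threshold were therefore WT-4weeks 1 at 37.1 inside it and KO-4weeks 3 at 9.28 outside it. All 12 livers outside the split were on the low side, between 1.08 and 8.81.

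KO-4weeks 1 stood apart from the other livers beyond Arntl. Alb, the gene of serum albumin, took 2.87% of its gene counts, against 12.3% and 9.23% in KO-4weeks 2 and 3 and 9.3% to 14.3% in the other 7 split livers. Tat, the tyrosine aminotransferase of amino acid catabolism, stood at 17500 CPM there against 6420 and 9560 in KO-4weeks 2 and 3, and Igfbp1, an insulin-repressed secreted protein, at 7940 CPM against 2350 and 3840. No-feature reads were 9.7% in KO-4weeks 1, against 7.9% and 7.8% in KO-4weeks 2 and 3 and 6.1% to 6.9% in WT-4weeks. The TMM factor was 1.06 in KO-4weeks 1, against 0.863 and 0.852 in KO-4weeks 2 and 3. The part of these in its differences was not tested. Counts that rest on KO-4weeks 1 are given below with and without its group.

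The genes that differed with Arntl in all 3 groups included outputs of the clock as well as genes outside the clock lists. A gene is called ordered here when, in each of the 3 groups, every Arntl-high liver lay beyond every Arntl-low liver in 1 direction and the fitted log2 difference was at least 1 in size. Of 12653 genes tested besides Arntl, 72 (0.569%) were ordered and higher and 79 (0.624%) ordered and lower, 1.19% in either direction. Without the KO-4weeks group, an alternative added after seeing the data, 204 of 15119 genes (1.35%) were ordered and higher and 234 (1.55%) ordered and lower. A KO-4weeks or WT-4weeks difference always sets 1 liver against 2. Within a single group, 20.8% to 39.1% of all genes separated the classes in a given direction, at any size. Over all genes, deviations of WT-4weeks 1 from its group mean correlated at -0.0514 with KO-4weeks 1. With KO-8weeks 1 and 2 they correlated at -0.0199 and 0.128. KO-4weeks 1 correlated at 0.139 and 0.114 with those 2 livers. How many genes would be ordered without a link to Arntl was not tested.

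Of the 6 clock genes known to peak near Arntl, 1 separated the classes in all 3 groups, and the other 5 did not. Clock, which encodes BMAL1's partner, stood at 82.5 CPM in WT-4weeks 1 against 37.9 and 32.2 in the low livers, and at 83.7 and 103 CPM in KO-8weeks 1 and 2 against 67.5 and 70.3. In KO-4weeks 1 it was at 48.0 CPM, between the low livers at 42.0 and 56.4. Npas2, which encodes an alternative to CLOCK as BMAL1's partner, stood at 2.05 CPM in WT-4weeks 1 against 0 and 0.159. In KO-8weeks 1 and 2 it stood at 0.578 and 4.99 CPM against 0.217 and 0.224. All 3 KO-4weeks livers had 0 counts of Npas2, where the limit of 3 counts per library is at most 0.546 CPM. Nfil3, the D-box repressor, was higher with Arntl in WT-4weeks (36.9 CPM against 25.5 and 17.2) and in KO-8weeks (153 and 42.9 CPM against 23.3 and 17.2). In KO-4weeks 1 it was at 8.74 CPM, between 7.64 and 27.5. Rora, an activator of Arntl, was higher in KO-4weeks 1 (113 CPM against 59.3 and 62.6) and in KO-8weeks 1 and 2 (401 and 191 CPM against 135 and 151), and lower in WT-4weeks 1 (86.0 CPM against 94.6 and 108). Cry1, an E-box repressor gene known to peak later than the Per genes, was higher in every high liver of all 3 groups: 28.9 CPM against 19.8 and 14.6, 41.7 against 25.7 and 38.2, and 32.0 and 34.3 against 14.4 and 15.0. Its log2 difference was 0.82 (SE 0.18), below the size for an ordered gene. With no minimum size, 3.83% of all genes were higher in all 3 groups and 4.36% lower.

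The E-box repressor genes and their relatives were low in WT-4weeks 1, mostly low in KO-8weeks 1 and 2, and high in KO-4weeks 1. Of 12 such genes, all 12 were lower in WT-4weeks 1 than in both low livers, where 38.4% of all genes were lower and 37.2% higher. In KO-8weeks, 8 of 12 were lower and 2 (Per1 and Cry2) higher in both high livers, where 23.6% of all genes were lower and 20.8% higher. In KO-4weeks, 10 of 12 were higher in liver 1 and 1 lower, where 37.5% of all genes were higher and 39.1% lower. Median log2 differences over the 12 genes were -1.71 in WT-4weeks, 0.52 in KO-4weeks and -0.91 in KO-8weeks, beside -0.015, -0.033 and -0.0035 over all genes tested. In the daily cycle these genes are known to be low when Arntl is high, and the levels in KO-4weeks 1 did not have that order.

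Nr1d1, the REV-ERB alpha gene, stood at 4.84 CPM in WT-4weeks 1 against 10.4 and 23.1 in the low livers. KO-8weeks 1 and 2 had 13.5 and 7.91 CPM against 17.8 and 19.4. KO-4weeks 1 had 22.3 CPM against 6.64 and 3.63. So this repressor of Arntl was above both low livers in the KO-4weeks liver with the highest Arntl, and below them elsewhere. Nr1d2, the REV-ERB beta gene, went the same way at 33.5 CPM against 136 and 138 in WT-4weeks and 183 CPM against 102 and 112 in KO-4weeks, but in KO-8weeks liver 1 it stood at 137 CPM, between the low livers at 144 and 136, and liver 2 at 55.7. In the scaling of the 10-liver fit, which gave the counts above, both were below the low livers. Per3, a period gene, was low in the high livers of WT-4weeks and KO-8weeks. It stood at 3.16 CPM against 24.1 and 23.9 in WT-4weeks, and at 4.36 and 10.4 CPM against 63.1 and 57.8 in KO-8weeks. The 3 KO-4weeks livers were alike in Per3, at 25.2 CPM against 23.9 and 20.7. Per2 also stood at 20.3 CPM against 42.5 and 36.8 in WT-4weeks, 9.83 and 12.5 against 34.2 and 34.7 in KO-8weeks, and 40.3 against 36.0 and 31.8 in KO-4weeks. Ciart, the repressor with 3 E-boxes in the window printed above, stood at 9.49 CPM against 64.8 and 68.1 in WT-4weeks and at 75.8 CPM against 41.8 and 20.3 in KO-4weeks. In KO-8weeks it was at 12.9 and 6.09 CPM against 13.7 and 22.1, so liver 1 was close to a low liver.

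Of the PAR bZIP genes, which act on D-boxes, all 3 were lower with Arntl in WT-4weeks and KO-8weeks and differed from each other in KO-4weeks. Dbp stood at 0.559 CPM in WT-4weeks 1 against 24.2 and 46.6, and at 4.31 and 1.14 CPM in KO-8weeks 1 and 2 against 32.4 and 26.4. In KO-4weeks 1 it was at 9.74 CPM, between 16.7 and 2.13. Tef was lower in WT-4weeks 1 (57.2 CPM against 158 and 189) and in KO-8weeks (101 and 68.9 CPM against 180 and 189), and higher in KO-4weeks 1 (168 CPM against 134 and 96.7). Hlf alone of the 12 was lower in every high liver of all 3 groups: 67.8 CPM against 70.0 or more, 35.4 against 73.6 and 60.4, and 16.2 and 40.9 against 51.6 and 81.2. Its log2 difference was -0.85 (SE 0.29).

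**Figure D1:**
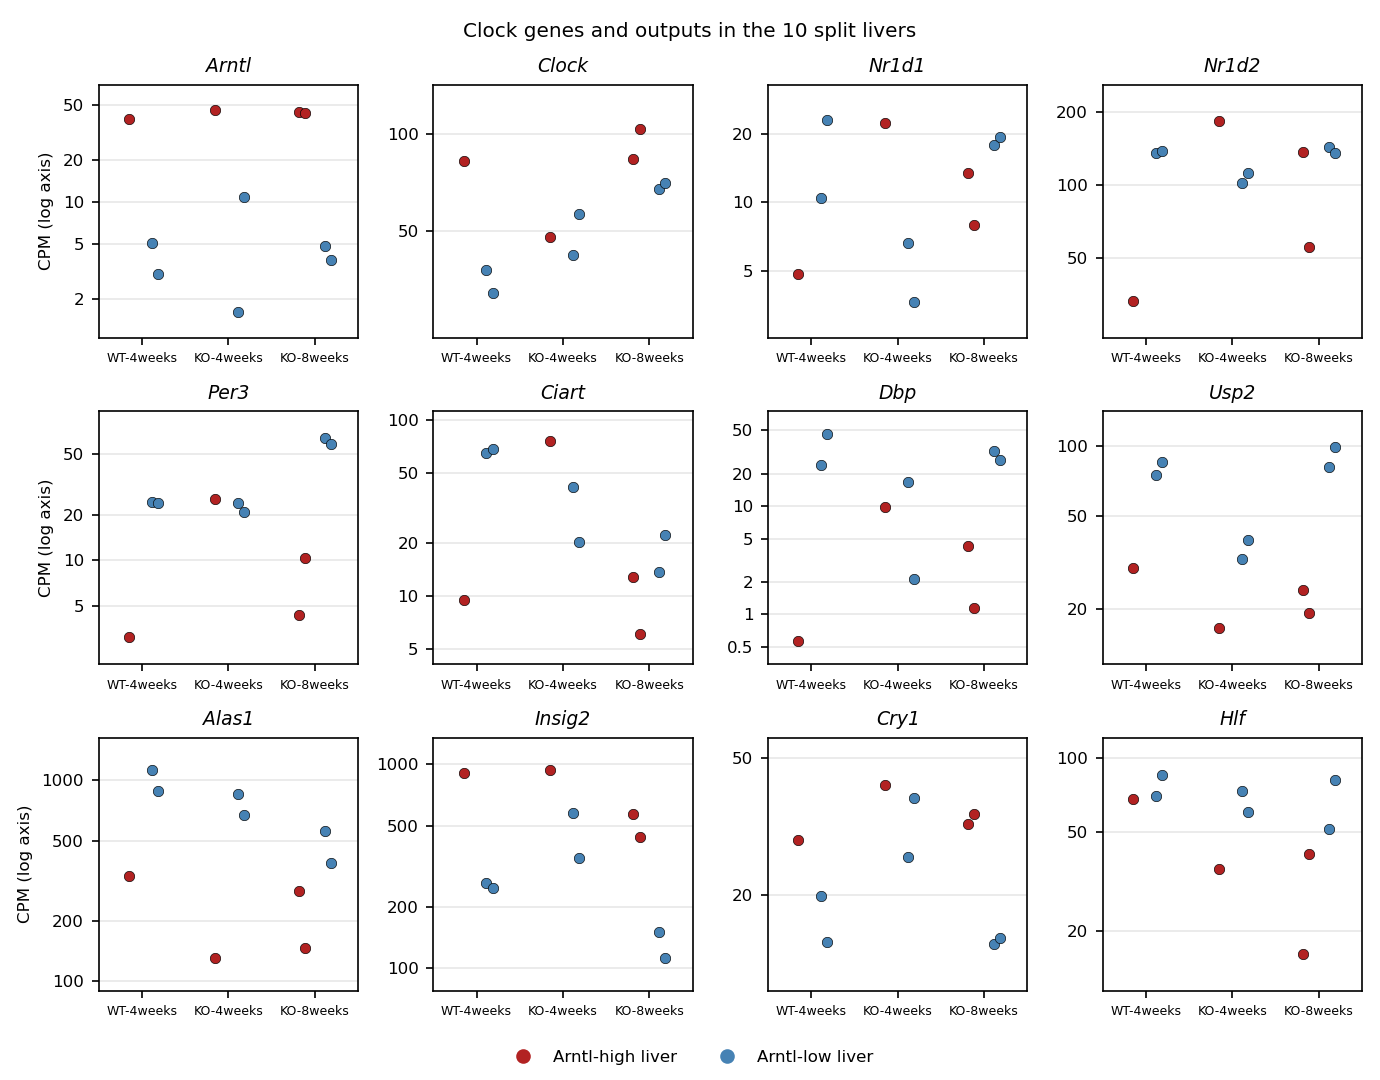
Levels of 12 clock genes and outputs in the 10 split livers, in CPM on log axes, with each point a liver, red for Arntl-high and blue for Arntl-low, by group. Nr1d1 and Ciart are low in the red points of WT-4weeks and KO-8weeks and high in the red point of KO-4weeks, while Usp2, Alas1, Insig2 and Cry1 keep their side in all 3 groups.

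Clock outputs included genes that kept 1 direction in all 3 groups. Of 19 outputs tested, 3 were ordered and higher (Insig2, Avpr1a and Tfrc) and 3 ordered and lower (Alas1, Usp2 and Noct), beside the 0.569% and 0.624% of all genes. Alas1, the first enzyme of haem synthesis, stood at 332 CPM against 1120 and 877 in WT-4weeks, 130 against 847 and 669 in KO-4weeks, and 280 and 146 against 556 and 387 in KO-8weeks. Its log2 difference was -1.66 (SE 0.29), and no high liver overlapped a low liver of its group. Usp2, a ubiquitin protease, stood at 30.0 CPM against 75.1 and 85.6, at 16.5 against 32.8 and 39.5, and at 24.2 and 19.2 against 80.9 and 99.1, a log2 difference of -1.64 (SE 0.19). Noct (Nocturnin), a phosphatase of NADP, stood at 29.2 CPM against 64.6 and 37.9, at 8.9 against 100 and 105, and at 23.4 and 27.7 against 41.3 and 64.5. The difference was widest in KO-4weeks. Insig2, which holds SREBP in the endoplasmic reticulum, was higher with Arntl: 911 CPM against 262 and 248, 936 against 579 and 349, and 569 and 442 against 150 and 112, a log2 difference of 1.65 (SE 0.22). Tfrc, the transferrin receptor, stood at 90.3 CPM against 59.5 and 54.8, at 125 against 58.1 and 88.8, and at 164 and 85.5 against 31.0 and 25.5. Avpr1a, a vasopressin receptor, had a log2 difference of 1.04 (SE 0.22).

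Other outputs lay on different sides between the groups or separated in some of them. Wee1, a cell cycle kinase, was at 1.86 CPM against 8.95 and 10.2 in WT-4weeks and at 2.0 and 4.06 CPM against 9.37 and 9.09 in KO-8weeks, but at 5.71 CPM against 5.03 and 3.84 in KO-4weeks. Upp2, a uridine phosphorylase, stood at 189 CPM against 1340 and 1360 in WT-4weeks and at 935 CPM against 596 and 482 in KO-4weeks. In KO-8weeks it did not separate the classes, at 1070 and 362 CPM against 743 and 842. Rgs16, a regulator of G-protein signalling in fasted liver, was lower in WT-4weeks 1 (14.0 CPM against 69.2 and 86.4) and higher in KO-4weeks 1 (524 CPM against 21.5 and 38.2) and in KO-8weeks (60.9 and 128 CPM against 15.5 and 30.1). Cyp7a1, the rate-limiting enzyme of bile acid synthesis, stood at 22.9 and 31.9 CPM in KO-8weeks 1 and 2 against 505 and 196, and at 70.0 CPM against 55.8 and 23.1 in WT-4weeks. Its KO-4weeks levels were close together, at 50.6 CPM against 49.9 and 92.7.

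**Figure D2:**
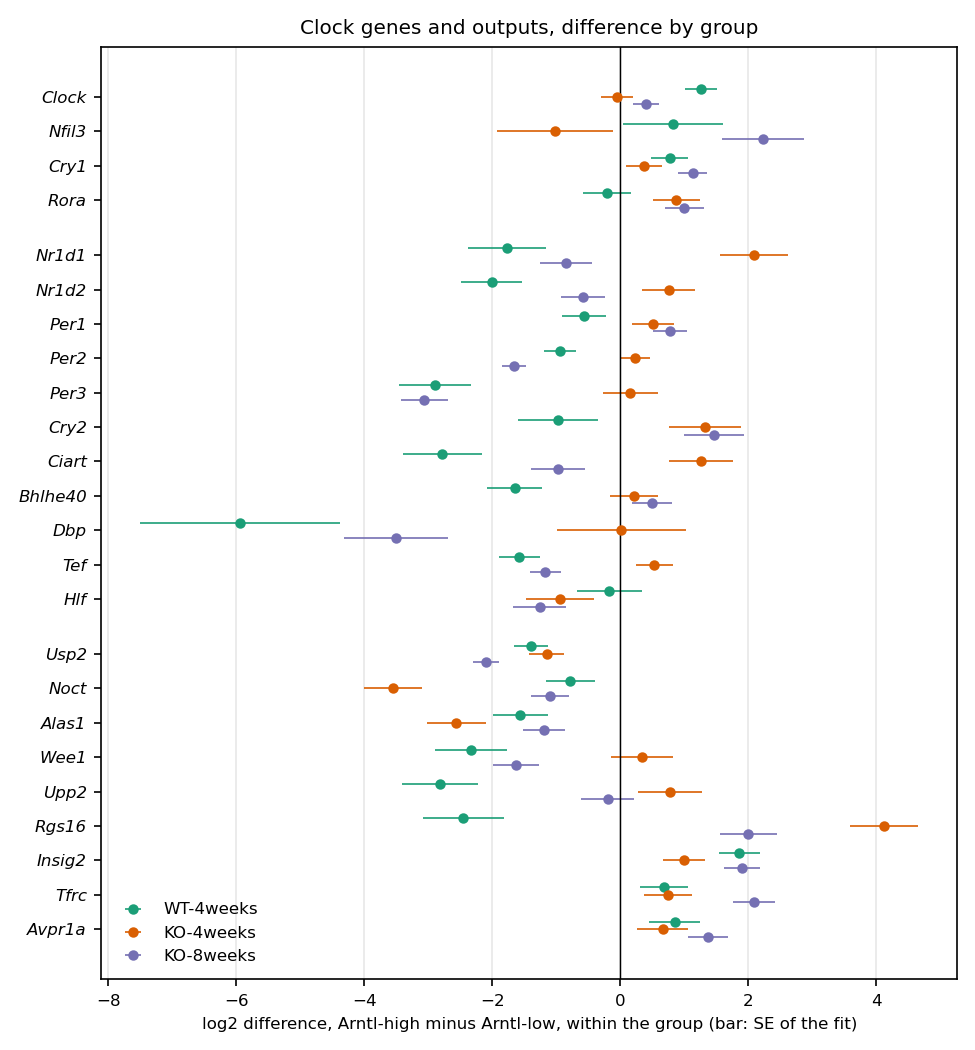
Log2 difference between Arntl-high and Arntl-low livers within each group, with the SE of the fit as bars, for clock genes and outputs. Nr1d1, Ciart, Tef and Wee1 lie left of 0 in WT-4weeks and KO-8weeks and right of 0 in KO-4weeks, while Usp2, Noct and Alas1 lie left of 0 in all 3 groups.

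Without KO-4weeks, 7 of the 12 E-box genes were ordered and lower and 0 ordered and higher, beside 1.55% and 1.35% of all genes. In KO-4weeks, 6 of these 7 lay in the opposite order and 1 in neither order. Over all genes that were ordered without KO-4weeks and tested in the 3-group fit (131 higher and 147 lower), KO-4weeks had the same order for 135, the opposite order for 75 and neither for 68.

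The difference between groups was tested as an interaction of Arntl class and group. Jointly over the 3 groups, 0 of 13338 genes (0%) passed an adjusted p of 0.05 by edgeR's quasi-likelihood test, with a smallest adjusted p of 0.0835 and 1907 genes at an unadjusted p under 0.05. DESeq2's likelihood ratio test called 414 genes on the same counts, among them Nr1d1 (adjusted p = 0.000657), Ciart (0.000147), Per3 (1.88e-05), Tef (0.00224), Upp2 (0.000222), Rgs16 (1.33e-11) and Cyp7a1 (6.62e-07). The joint edgeR test called 638 genes without KO-8weeks 2, 95 without KO-8weeks 1 and 41 without KO-8weeks 6. With the 4-week groups alone, 272 of 12192 genes (2.23%) had a more positive difference in KO-4weeks than in WT-4weeks and 307 (2.52%) a more negative one, by edgeR's quasi-likelihood test.

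In that 4-week test, 7 of the 12 E-box genes had a more positive difference in KO-4weeks and 0 a more negative one. The log2 difference was larger in KO-4weeks than in WT-4weeks by 3.85 (SE 0.73, adjusted p = 0.0161) for Nr1d1, 2.77 (SE 0.30, adjusted p = 0.00154) for Nr1d2, 3.04 (SE 0.42, adjusted p = 0.00431) for Per3 and 4.04 (SE 0.54, adjusted p = 0.00356) for Ciart, by edgeR. Cry2, Tef and Bhlhe40 also passed. Dbp did not, at 5.92 (SE 1.52, adjusted p = 0.0567), nor did Per1 (1.08, adjusted p = 0.0722) and Per2 (1.17, adjusted p = 0.0841). The outputs ordered in all 3 groups gave -1.0 (SE 0.37, adjusted p = 0.154) for Alas1, 0.25 (SE 0.34, adjusted p = 0.737) for Usp2 and -0.87 (SE 0.42, adjusted p = 0.275) for Insig2, and Noct passed at -2.76 (SE 0.47, adjusted p = 0.00982). Each high class at 4 weeks is 1 liver, so this test takes its spread from the pairs of low livers.

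Outside the clock lists and at a mean log2 CPM of at least 1, the 8 higher and 8 lower ordered genes with the largest differences had varied roles. Chka, the choline kinase of phosphatidylcholine synthesis (chr19:3851773-3894369), separated the classes widely in all 3 groups: 80.4 CPM against 23.2 and 18.0, 106 against 15.9 and 27.5, and 109 and 78.4 against 28.3 and 20.2, a log2 difference of 2.03 (SE 0.19). Rnf144a, a ubiquitin ligase, stood at 10.4 CPM against 2.46 and 2.39, at 15.5 against 5.23 and 6.40, and at 47.9 and 23.0 against 4.34 and 6.81. Cdkn1a, the cell cycle inhibitor p21 (chr17:29090976-29100727), stood at 167 CPM against 36.7 and 30.1, at 114 against 30.2 and 111, and at 297 and 78.3 against 9.06 and 10.2, a log2 difference of 2.81 (SE 0.68). KO-4weeks 1 and 3 were close together in Cdkn1a. Gadd45b, a growth arrest and DNA damage gene, was at 10.8 CPM against 5.09 and 3.66 in WT-4weeks, 51.9 against 7.44 and 38.4 in KO-4weeks, and 75.6 and 9.69 against 3.12 and 4.75 in KO-8weeks.

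The other 4 of the 8 largest higher genes had their highest levels in KO-4weeks 1 and KO-8weeks 1. Btc, the EGF receptor ligand betacellulin (chr5:91357261-91402994), stood at 69.2 CPM in KO-4weeks 1 and 76.3 CPM in KO-8weeks 1, against 3.82 CPM or less in the other 8 split livers. In WT-4weeks it was at 1.12 CPM against 0.527 and 0. Egr1, an immediate early transcription factor, stood at 206 CPM in KO-4weeks 1 and 112 in KO-8weeks 1, against 17.3 CPM or less in the other 8. Itga2, an integrin, stood at 27.4 CPM in KO-4weeks 1 against 3.62 and 4.06, and at 4.78 and 1.61 CPM in KO-8weeks 1 and 2 against 0.434 and 0.374. Fmn2, a formin, stood at 27.0 CPM against 5.23 and 3.42 in KO-4weeks and at 4.15 and 1.65 CPM against 0.217 and 0.299 in KO-8weeks. WT-4weeks 1 was close to its nearer low liver in both (1.68 CPM against 0.527 and 1.43 for Itga2, and 1.12 against 1.05 and 0.478 for Fmn2). In all, 32 genes were at least 2-fold higher in KO-4weeks 1 and KO-8weeks 1 than in each of the other 8 livers, a set chosen after their values were seen. Among them were Btg2 (345 CPM or more against 89.5 or less), an antiproliferative gene, Ddit4 (289 against 131), an inhibitor of mTORC1, Sesn1 (108 against 36.5), a stress-induced gene, and Jun (81.0 against 32.0).

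Among the lower genes, Serpina6, the corticosteroid-binding globulin (chr12:103646630-103657212), separated all 3 groups: 99.8 CPM against 332 and 335, 3.19 against 74.6 and 25.8, and 153 and 111 against 372 and 187. Dio1, the deiodinase that activates thyroid hormone (chr4:107291465-107307169), stood at 78.4 CPM against 157 and 177, at 0.336 against 13.9 and 1.49, and at 7.2 and 2.96 against 39.2 and 42.0, a log2 difference of -2.38 (SE 0.57). Its KO-4weeks 1 level of 0.336 CPM is under that library's floor of 3 counts (0.535 CPM). Nudt7, a peroxisomal CoA hydrolase, had a log2 difference of -1.95 (SE 0.35), with WT-4weeks 1 below both low livers at 158 and 238 CPM, and KO-8weeks 1 and 2 at 10.4 and 17.6 CPM against 93.0 and 35.1. Inhbe, a subunit of activin E, and Tsku, a secreted leucine-rich protein, differed mostly in the KO groups. Inhbe stood at 1.18 CPM against 135 and 19.9 in KO-4weeks and at 0.946 and 2.5 against 41.1 and 12.6 in KO-8weeks, but at 37.4 against 41.8 and 62.4 in WT-4weeks. Tsku was at 9.24 CPM against 50.5 and 60.6, and at 1.21 and 7.91 against 74.3 and 57.9, but at 117 against 120 and 151 in WT-4weeks. Krt23, a keratin, Hectd2os, an antisense RNA, and Nrep made up the rest of the 8 largest lower genes. In KO-4weeks, Hectd2os stood at 0 CPM against 0.402 and 0.213. All of these are under the libraries' floors of 3 counts (0.520 to 0.546 CPM), so its order in that group is not resolved. Overlapping genes on opposite strands cannot be told apart where the strand setting of the counts is not known, which bears on Hectd2os.

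**Figure D3:**
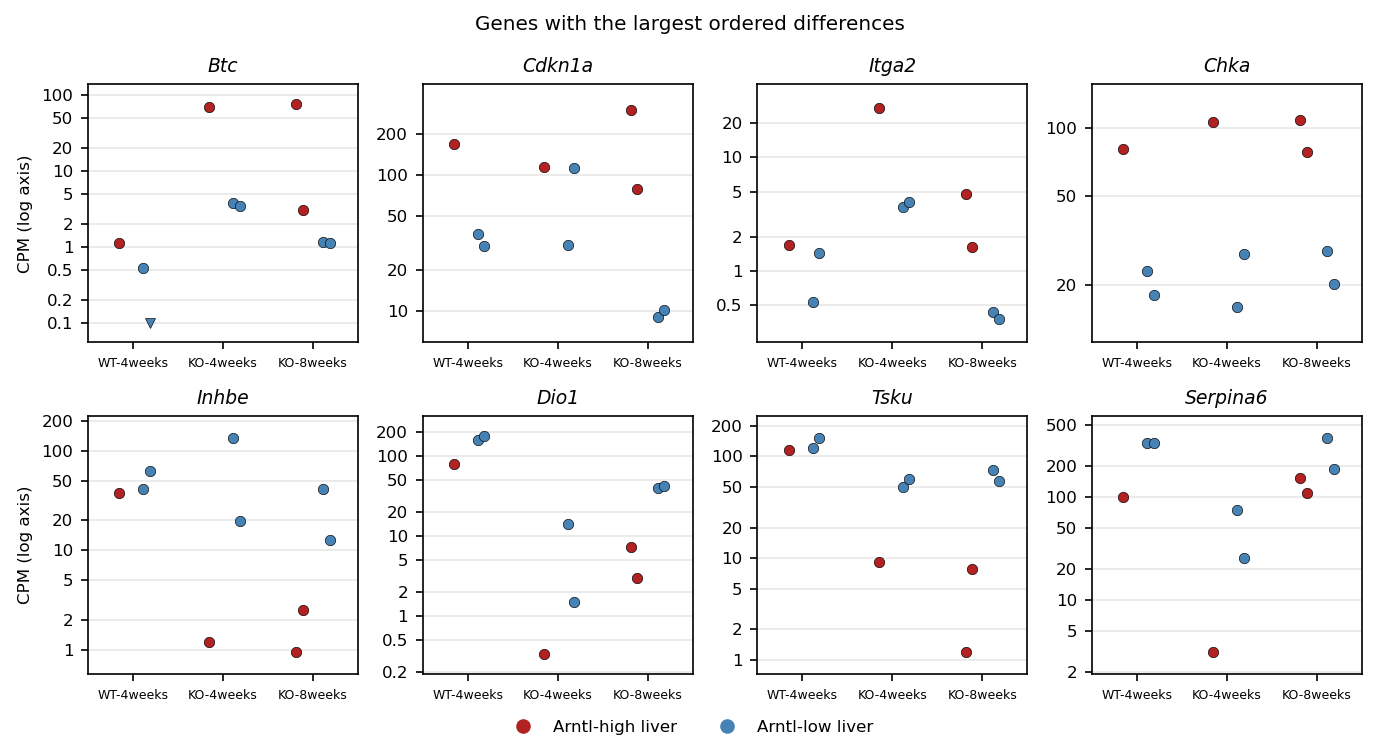
Levels of 4 higher and 4 lower genes of the largest ordered differences in the 10 split livers, in CPM on log axes, red for Arntl-high and blue for Arntl-low livers. The triangle in the Btc plot marks WT-4weeks 3, with 0 counts, which has no place on a log axis. Chka separates the classes alike in all 3 groups, while Btc is high in 2 of the 4 red points.

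Temperature-responsive genes divided by type. Both cold-induced RNA-binding protein genes were higher in every high liver of all 3 groups. Cirbp stood at 19.4 CPM against 14.0 and 14.0 in WT-4weeks, 134 against 34.0 and 43.1 in KO-4weeks, and 43.9 and 29.4 against 8.85 and 18.7 in KO-8weeks, a log2 difference of 1.28 (SE 0.26). Rbm3 had a log2 difference of 0.87 (SE 0.24). All 15 heat shock genes tested were higher in WT-4weeks 1, while 12 of 15 were lower in KO-4weeks 1 and 10 of 15 lower in both high KO-8weeks livers. Over all genes 37.2% were higher in WT-4weeks 1, 39.1% lower in KO-4weeks 1 and 23.6% lower in KO-8weeks 1 and 2. Hspa1b, the inducible Hsp70, stood at 45.2 CPM against 9.13 and 15.3 in WT-4weeks and at 0.336 against 1.81 and 1.28 in KO-4weeks, where the first value is under that library's floor of 3 counts (0.535 CPM). With library totals in place of TMM, which moved the median KO-4weeks difference of all genes to 0.31, 7 of the 15 were lower and 4 higher in KO-4weeks 1. Of 19 chaperones and folding factors of the endoplasmic reticulum, 17 were higher and 0 lower in WT-4weeks 1 (37.2% and 38.4% of all genes), 5 higher and 9 lower in KO-4weeks 1 (37.5% and 39.1%, and 6 higher and 2 lower with library totals), and 4 higher and 0 lower in KO-8weeks 1 and 2 (20.8% and 23.6%).

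Genes of feeding and fasting had no common direction. The 29 PPARA and fasting genes had median log2 differences of 0.13 in WT-4weeks, -1.99 in KO-4weeks and -0.43 in KO-8weeks. In KO-4weeks 1, 26 of 29 were lower than in both low livers, beside 39.1% of all genes. Cyp4a14, a fatty acid hydroxylase and PPARA target, stood at 1190 CPM in KO-4weeks 1 against 6460 and 5960, and at 14200 CPM in WT-4weeks 1 against 6090 and 6680. In KO-8weeks it did not separate, at 1540 and 708 CPM against 1420 and 490. In the 4-week interaction test 19 of the 29 genes had a more negative difference in KO-4weeks and 0 a more positive one, beside 2.52% and 2.23% of all genes.

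All 25 cholesterol synthesis genes were lower in KO-4weeks 1, 17 of 25 were lower in WT-4weeks 1, and 7 of 25 were higher and 0 lower in KO-8weeks 1 and 2. The shares of all genes were 39.1% lower in KO-4weeks, 38.4% lower in WT-4weeks, and 20.8% higher and 23.6% lower in KO-8weeks. Idi1, an isomerase of the pathway, stood at 3.53 CPM against 243 and 142 in KO-4weeks and at 110 and 246 CPM against 131 and 417 in KO-8weeks. Of 19 lipogenesis genes, 14 were lower in KO-4weeks 1 (39.1% of all genes), 10 in WT-4weeks 1 (38.4%) and 6 in KO-8weeks 1 and 2 (23.6%), and 3 were higher in each group. Fads2, a fatty acid desaturase, was the 1 gene of this list ordered in all 3 groups: 264 CPM against 442 and 506, 20.0 against 283 and 80.5, and 160 and 135 against 422 and 218. Of 16 gluconeogenesis and fasting genes, 11 were higher and 0 lower in KO-8weeks 1 and 2 (20.8% and 23.6% of all genes), 7 higher and 5 lower in KO-4weeks 1 (37.5% and 39.1%), and 3 higher and 10 lower in WT-4weeks 1 (37.2% and 38.4%). Pck1, the rate-limiting enzyme of gluconeogenesis, had a log2 difference of 0.40 (SE 0.24) over the 3 groups. Igfbp1 was higher in KO-4weeks 1 and in KO-8weeks 1 and 2 (7800 and 1830 CPM against 526 and 718) but not in WT-4weeks 1 (336 CPM against 413 and 464).

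Immediate early and glucocorticoid-response genes were mostly higher in the KO livers with high Arntl and mostly lower in WT-4weeks 1. Of 13 immediate early genes, 11 were higher in KO-4weeks 1 and 8 in both high KO-8weeks livers, while 8 were lower in WT-4weeks 1, beside 37.5%, 20.8% and 38.4% of all genes. Klf6, an immediate early factor, was ordered with Egr1: 11.7 CPM against 9.13 and 9.71, 67.7 against 14.7 and 21.3, and 112 and 27.6 against 19.6 and 23.5. Of 11 glucocorticoid-response genes, 10 were higher in KO-4weeks 1 and 9 in KO-8weeks 1 and 2, and 8 were lower in WT-4weeks 1, beside the same shares of all genes. Tsc22d3, the glucocorticoid-induced leucine zipper gene, was higher in all 3 groups with a log2 difference of 0.61 (SE 0.20). Fkbp5, another glucocorticoid target, stood at 240 CPM against 348 and 341 in WT-4weeks, 430 against 197 and 243 in KO-4weeks, and 309 and 313 against 181 and 243 in KO-8weeks. Of 13 ATF4-response genes, Sesn2, a leucine sensor of the mTORC1 pathway, was ordered and higher (log2 difference 1.66, SE 0.36) and Nupr1 ordered and lower (-1.18, SE 0.37), the latter at low levels of 0.168 to 2.81 CPM.

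**Figure D4:**
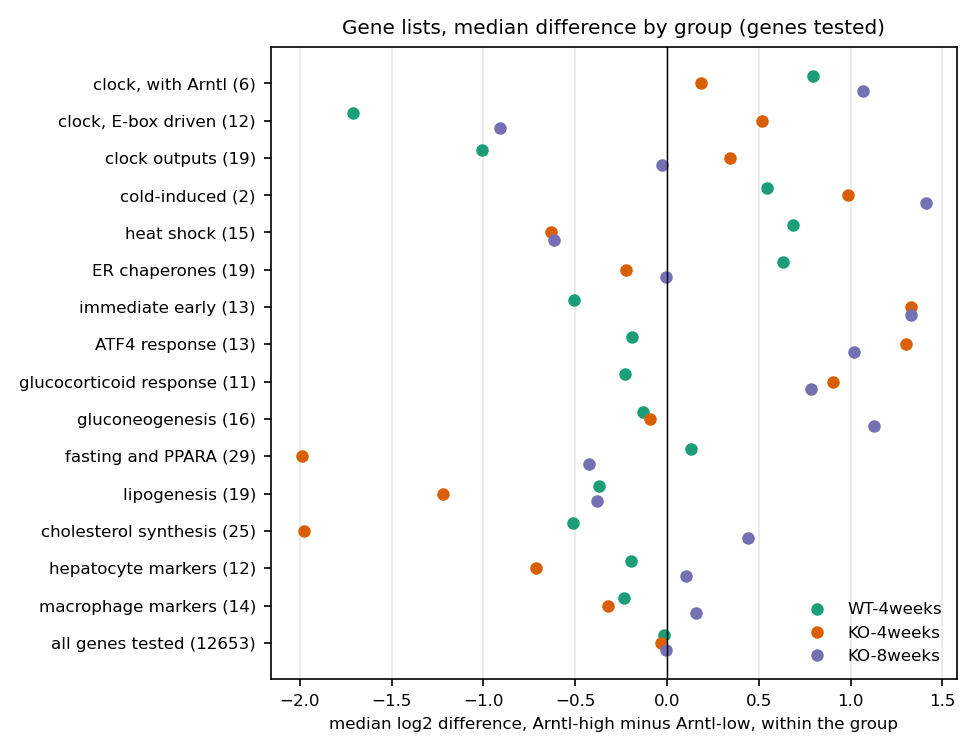
Median log2 difference between Arntl-high and Arntl-low livers within each group, for gene lists with the number of genes tested in brackets, each point a group. The E-box, immediate early, PPARA and cholesterol lists lie on different sides of 0 in different groups, and the median of all genes lies near 0.

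Hepatocyte markers were mostly lower in the high livers of 4 weeks, and stellate cell markers were more often lower than higher in each group. Of 12 hepatocyte markers, 11 were lower in KO-4weeks 1, 9 were lower in WT-4weeks 1 and 4 were higher and 2 lower in KO-8weeks 1 and 2, beside 39.1% lower, 38.4% lower, and 20.8% higher and 23.6% lower of all genes. Their summed level was 67500 CPM in KO-4weeks 1, 150000 in WT-4weeks 1, and 205000 and 197000 in KO-8weeks 1 and 2, against 161000 to 206000 in the 6 low livers, and none of the 12 was at 0 in any liver. Hnf4a, the hepatocyte transcription factor, was at 1120 CPM in KO-4weeks 1 against 575 and 773. The 14 macrophage markers, none at 0, summed to 973 CPM in WT-4weeks 1 against 1050 and 1140. In KO-4weeks 1 their sum was 644 CPM against 863 and 721. KO-8weeks 1 and 2 had 1270 and 1180 CPM against 1020 and 1110. In WT-4weeks, KO-4weeks and KO-8weeks, 10, 9 and 2 of the 14 were lower and 3, 3 and 8 higher. The shares of all genes were 38.4%, 39.1% and 23.6% lower, and 37.2%, 37.5% and 20.8% higher. With library totals, 5 were lower and 6 higher in KO-4weeks 1, and 3 lower and 1 higher in KO-8weeks 1 and 2. The 14 endothelial markers, none at 0, summed to 466 CPM in WT-4weeks 1 against 529 and 599. In KO-4weeks 1 the endothelial sum was 392 CPM against 308 and 407. KO-8weeks 1 and 2 had 964 and 718 CPM against 774 and 734. Of 14 stellate cell markers, 9, 11 and 6 were lower in WT-4weeks, KO-4weeks and KO-8weeks, and 2, 0 and 2 higher, with median log2 differences of -0.23, -0.80 and -0.47. Col3a1, a collagen gene (-0.79, SE 0.32), and Pdgfrb, the PDGF receptor beta gene (-0.33, SE 0.19), were lower in all 3 groups, below the size for an ordered gene. The summed level of the 14 was 399 CPM in WT-4weeks 1 against 511 and 525, 444 in KO-4weeks 1 against 620 and 575, and 1110 and 936 in KO-8weeks 1 and 2 against 952 and 895, with at most 1 marker at 0. Of 12 pericentral hepatocyte genes, 7, 11 and 4 were lower and 3, 1 and 1 higher in the same order of groups. In bulk tissue, fewer cells of a type and less RNA per cell cannot be told apart, and the part of cell makeup in the differences was not tested.

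The 12 livers outside the split gave a test of the same genes against Arntl where the split had not been made. The slope of log2 expression on log2 Arntl, with 4 group means, passed an adjusted p of 0.05 in edgeR's quasi-likelihood test for 918 of 15772 genes (5.82%) with a positive and 1086 (6.89%) with a negative slope. Of the 12 E-box genes, 9 had a negative slope past the threshold and 0 a positive one. Dbp had a slope of -1.25 (SE 0.14, adjusted p = 0.00659), so that expression fell by 1.25 on the log2 scale per doubling of Arntl. Tef (-0.51, SE 0.07, adjusted p = 0.0157), Per3 (-0.52, SE 0.08, adjusted p = 0.0168) and Hlf (-0.42, SE 0.07, adjusted p = 0.0209) fell as well in edgeR's test. Cry2, Bhlhe41, Per2, Ciart and Nr1d2 made up the 9, and Nr1d1 had a slope of -0.0031 (adjusted p = 0.994 by edgeR). Npas2 (1.2, adjusted p = 0.0211), Nfil3 (0.76, adjusted p = 0.0240) and Clock (0.19, adjusted p = 0.0394) had positive slopes in edgeR's test, 3 of 7 genes known to peak near Arntl. Of 19 outputs, 7 had negative slopes, among them Usp2 (-1.36, adjusted p = 0.0211) and Alas1 (-0.84, adjusted p = 0.0353), and 1, Avpr1a (0.62, adjusted p = 0.0401), a positive one, by edgeR. Insig2 had a slope of 0.19 (adjusted p = 0.506 by edgeR).

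These slopes rested on WT-20months 1 and KO-20months 1, the 2 livers outside the split with the highest Arntl. Their Arntl was 5.00 and 7.55 CPM, against 1.12 to 1.86 CPM in the other 4 livers of that age and 1.39 to 2.57 CPM at 8 weeks. Dbp stood at 9.02 and 11.1 CPM there, against 51.0 to 78.9 CPM in the other 4 livers of 20 months. Per3 stood at 16.0 and 11.9 CPM against 27.0 to 32.6, and Usp2 at 32.0 and 5.60 CPM against 73.9 to 141. So at 20 months the livers with more Arntl had less Dbp, Per3 and Usp2, and the 2 sets did not overlap. No-feature reads were 14.7% in KO-20months 1 against 7.7% and 7.4% in KO-20months 2 and 3. In WT-20months 1 they were 8.5% against 8.3% and 7.0% in WT-20months 2 and 3. The part of this in the slopes was not tested. With WT-20months 1 and KO-20months 1 both left out, or with the 8-week or the 20-month livers alone, 0 genes passed in either direction. Dbp then had slopes of -0.60 (adjusted p = 1 by edgeR), -0.66 (adjusted p = 0.538) and -1.26 (adjusted p = 0.145). Leaving out any 1 of the 12 livers kept Dbp, Tef and Usp2 past the threshold, with Dbp slopes from -1.37 to -1.09 and a highest adjusted p of 0.0291 by edgeR. Without KO-20months 1, slopes of Per3 (adjusted p = 0.0586 by edgeR), Hlf (0.0531), Per2 (0.131), Cry2 (0.0942), Ciart (0.119), Nr1d2 (0.338), Clock (0.101), Npas2 (0.159), Upp2 (0.109), Wee1 (0.0522), Chka (0.0522) and Alas1 (0.353) no longer passed. Without WT-20months 1, Nfil3 (adjusted p = 0.0661 by edgeR), Per2 (0.0558), Ciart (0.0532), Bhlhe41 (0.0545), Nr1d2 (0.0720) and Clock (0.0949) did not pass. Nr1d2 passed in 2, Clock in 3 and Alas1 in 6 of the 12 fits that left out 1 liver. The counts over all genes were 184 and 164 without WT-20months 1, 305 and 255 without KO-20months 1 and 177 and 206 without KO-20months 3. They also moved without WT-8weeks 2 (381 and 367) or 3 (370 and 353) and without KO-8weeks 3 (435 and 462) or 4 (432 and 462). With library totals in place of TMM they were 1589 and 380, and 8 of the 12 E-box genes had a negative slope.

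Other genes moved with Arntl in the same livers. Of 13 immediate early genes, 7 had positive slopes past the threshold and 0 negative, beside 5.82% and 6.89% of all genes. Egr1 stood at 621 CPM in KO-20months 1 and 2.74 to 19.8 CPM in the other 11 livers. Of 14 macrophage markers, 8 had positive slopes and 0 negative, beside the same shares of all genes. Clec4f, a Kupffer cell lectin, stood at 293 and 292 CPM in WT-20months 1 and KO-20months 1 and at 103 to 220 CPM in the other 10 livers. Saa1, an acute phase gene, was at 47500 CPM in WT-20months 1 and 22300 CPM in WT-20months 2. Neutrophil markers summed to 3490 CPM in WT-20months 1, 429 in WT-20months 2 and 2.86 to 21.2 in the other livers outside the split. Cell cycle genes summed to 397 CPM in WT-20months 1 and 85.9 to 136 CPM in the others. Of 10 neutrophil markers 1 had a positive slope past the threshold, and of 25 cell cycle genes 2, near the 5.82% of all genes. In either list 0 were negative. The part of these in the slopes was not tested. Chka (0.79, adjusted p = 0.00898 by edgeR) and Ypel2 (0.74, adjusted p = 0.00299), which were higher with Arntl in the split livers, had positive slopes too, Chka not past the threshold without KO-20months 1. The other genes with the smallest adjusted p and a positive slope were Tet2, a DNA demethylase, Junb, an immediate early factor, Kcnq1ot1, a long noncoding RNA, and St5. Those with a negative slope, besides Dbp, Tef and Wee1, were Map2k6, a kinase of the p38 pathway (-0.96), Marveld1 (-0.57) and Tmem14c (-0.45), a transporter of haem synthesis.

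**Figure D5:**
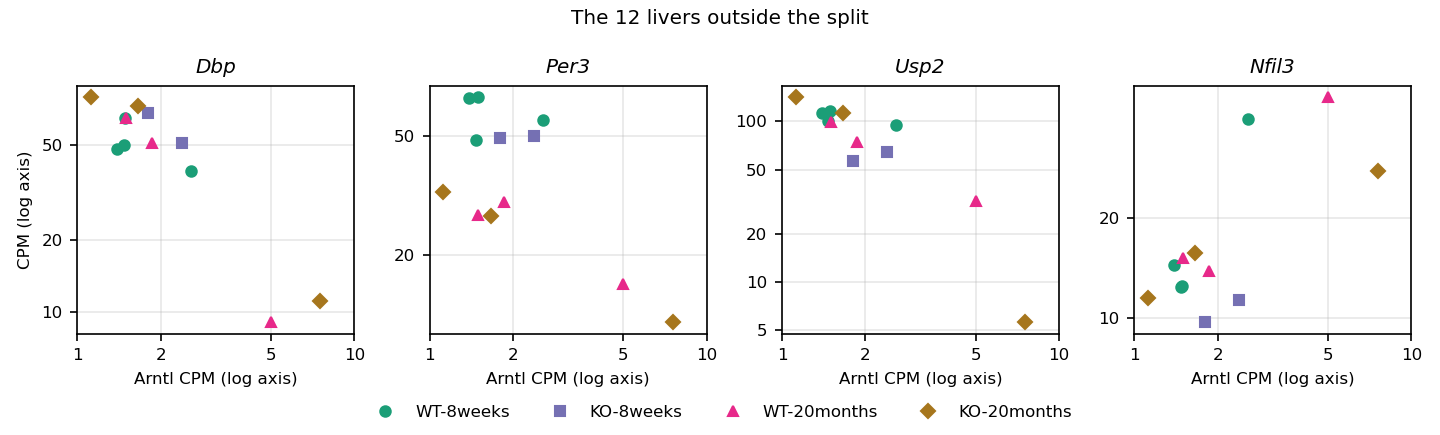
Level of 4 clock genes against Arntl in the 12 livers outside the split, both in CPM on log axes, with a symbol for each group. WT-20months 1 and KO-20months 1 lie to the right with Arntl at 5.00 and 7.55 CPM, and have the lowest Dbp, Per3 and Usp2.

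The Arntl class was also set beside genotype, since each genotype at 4 weeks had 1 high and 2 low livers. With the class as a term, edgeR's quasi-likelihood test called 726 of 11598 genes (6.26%) higher and 758 (6.54%) lower in KO. Without the term it called 576 of 11144 (5.17%) higher and 624 (5.60%) lower, and 1146 genes were called in both fits. Slc10a1 was lower in KO in both fits, with log2 differences of -1.98 (SE 0.29, adjusted p = 0.00791) and -1.93 (SE 0.33, adjusted p = 0.0117) by edgeR. Of the 11 E-box genes tested, 0 passed in either fit. Usp2 was lower in KO with the term (-1.02, SE 0.18, adjusted p = 0.0137 by edgeR) and did not pass without it (-1.07, SE 0.42, adjusted p = 0.134). Cirbp was higher in KO in both fits, at 1.95 (SE 0.30, adjusted p = 0.00899) with the term and 2.19 (SE 0.50, adjusted p = 0.0297) without it. Of the named genes, Sult1e1 and Elovl3 differed most between genotypes, in both fits. Sult1e1, an oestrogen sulfotransferase, differed by 8.80 and 8.88, and Elovl3 by -8.24 and -8.23. A list of 20 genes higher in male than female liver summed to 2160 to 3630 CPM in KO-4weeks against 18200 to 27300 in WT-4weeks. A list of 18 genes higher in female liver summed to 2250 to 4610 CPM against 300 to 394. In KO-8weeks 1, 2, 5 and 6 the male list summed to 952 to 2880 CPM. KO-8weeks 3 and 4 had 37500 and 36900 CPM. What moved these lists was not tested.

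Among the genes chosen for their Arntl difference, several also differed by genotype. Btc (5.24, SE 0.60, adjusted p = 0.00338 by edgeR) and Itga2 (2.89, SE 0.52, adjusted p = 0.0150) were higher in KO, and Dio1 (-4.93, SE 0.75, adjusted p = 0.00921), Serpina6 (-3.28, SE 0.55, adjusted p = 0.0120) and Nudt7 (-2.09, SE 0.34, adjusted p = 0.0108) lower. Serpina6 and Nudt7 did not pass without the term (adjusted p = 0.0741 and 0.0762 by edgeR). Among the lists, 7 of 14 sulfation genes were higher in KO and 2 lower with the term, and 6 higher and 0 lower without it. Of all genes, 6.26% were higher and 6.54% lower with the term, and 5.17% and 5.60% without it. Other lists differed as well. Of 20 genes of the male list, 18 were lower with the term and 16 without it, and of 23 interferon genes 18 and 17, with 0 higher. Of 15 genes of the female list, 8 were higher and 1 lower with the term, and 6 and 1 without it. Leaving out 1 liver gave 1352 higher genes without WT-4weeks 1 and 1378 without KO-4weeks 1, where no high liver of that genotype remained. It gave 127 and 117 without WT-4weeks 2 and 3, and 414 and 130 without KO-4weeks 2 and 3. Usp2 then missed the threshold without WT-4weeks 2 (adjusted p = 0.0690 by edgeR), WT-4weeks 3 (0.0819) or KO-4weeks 3 (0.0707), and without KO-4weeks 3 so did Slc10a1 (-1.80, adjusted p = 0.0557) and Cirbp (2.02, adjusted p = 0.0568).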

How the data were processed

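Frozen livers of 22 male mice were sequenced as poly(A) RNA, paired-end at 4 weeks and single-end later, per the names of the deposited tables. The authors deposited raw read counts per Ensembl gene, and the submitters' processing notes name HISAT2 2.0.4, HTSeq 0.6.1p1 and GRCm38. The strand setting and annotation release are not given in the sources used here. Lines without a gene were left out: no-feature reads came to 6.13% to 17.8% and ambiguous reads to 3.80% to 7.30%. Of 47729 gene lines, 47224 matched a symbol. The floor of 3 counts was 0.112 to 0.546 CPM per library, and covers counting error only.

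The counts were fitted in R 4.3.3 with edgeR 4.0.16 (TMM factors, filterByExpr, quasi-likelihood, Benjamini-Hochberg adjustment over all genes tested, threshold 0.05), after tests on simulated data. DESeq2 1.42.0 was the alternative. The high-minus-low fit had group as a block and gave estimates and SEs. The class by group interaction, the slope on log2 Arntl in the 12 livers outside the split, and KO against WT at 4 weeks with Arntl class as a term were tested. Printed levels are CPM with TMM factors of all 22 libraries, except plain CPM for the split itself. Of 152 ordered genes, Arntl included, 147 were ordered also in the printed levels. No 2 libraries of a group were duplicates: over 33 pairs the chi-square statistic divided by its degrees of freedom was at least 8.34.

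The members and gene lists were chosen with earlier results of these data known. Named genes were a panel of 19 clock genes and 23 outputs and metabolic genes, the 8 higher and 8 lower ordered genes with the largest difference outside the clock lists and a mean log2 CPM of at least 1, the 2 largest of each list with at least 3 ordered members, up to 6 genes of each direction with the smallest adjusted p of the slope, and Slc10a1. List members named beyond this rule were chosen after their values were seen. Alternatives were RLE scaling, no filter, DESeq2, each library left out, each age alone and a replicate block. Library totals, the fit without KO-4weeks, and the slope without both 20-month livers of highest Arntl were added after seeing the data. Results for a few named genes are not reported here, though list counts include them.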

Additional observations from a re-analysis of the deposited data

Results flagged for a closer look

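A library stood far from the others of its group, by Dixon's criterion at 95%, in 26 of 126 pairs of a named gene and a group of 4 or 6 livers. Chance gives about 1 in 20 for genes not chosen by their values. Many of the named genes were chosen for their differences in the split livers, KO-8weeks 1 and 2 among them. The KO-8weeks group also holds Arntl-high, Arntl-low and left-out livers, so the flags cannot be read against that share. KO-8weeks 1 accounted for 12 of the 26 pairs. Its level lay above all others of the group for Btc (76.3 CPM, the nearest at 3.05), Cdkn1a (297 and 78.3), Egr1 (112 and 17.3), Gadd45b (75.6 and 9.69), Itga2 (4.78 and 1.61), Igfbp1 (7800 and 1830), Junb (124 and 48.0) and Pdk4 (267 and 40.9). It lay above them also for the clock genes Cry2 (176 and 49.5), Nfil3 (153 and 42.9) and Rora (401 and 191), and below them for Fasn (76.7 and 204). KO-8weeks 2 was high in Npas2 (4.99 CPM, nearest 0.578) and low in Nr1d2 (55.7 CPM, nearest 136). KO-8weeks 4 was high in Nr1d1 (86.5 CPM, nearest 26.1), and KO-8weeks 5 in Krt23 (4.9 CPM, nearest 1.63) and Serpina6 (372 CPM, nearest 187).

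Outside the split, WT-8weeks 4 had the highest Arntl of its group (2.57 CPM, nearest 1.49) and was also high in Nfil3 (39.4 and 14.4), Cdkn1a (8.48 and 3.52), Igfbp1 (268 and 68.9), Itga2 (1.07 and 0.396), Tet2 (28.4 and 25.5) and Ypel2 (23.3 and 17.4). WT-8weeks 3 was high in Bhlhe40 (84.0 CPM, nearest 70.8), and WT-8weeks 1 low in Hsph1 (40.8 CPM, nearest 57.9).

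The Arntl-high minus Arntl-low difference was unlike in the KO and WT livers of 4 weeks for 19 of 74 named genes, by edgeR's interaction test, where 2.23% of all genes had a more positive and 2.52% a more negative difference in KO. Many of the named genes were chosen for their values in these livers, and the high class is 1 liver in each genotype. The log2 difference was more positive in KO for the clock genes Nr1d1 (3.85), Nr1d2 (2.77), Per3 (3.04), Ciart (4.04), Cry2 (2.29), Tef (2.1) and Bhlhe40 (1.87), and for the outputs Rgs16 (6.57), Upp2 (3.59), Wee1 (2.66), Cyp2a5 (1.91) and Nampt (1.68). It was more positive also for Srebf1 (3.16), Map2k6 (5.33), Egr1 (3.27) and Fkbp5 (1.45). It was more negative in KO for Noct (-2.76), Tsku (-2.42) and Hspa1b (-4.06). The Hspa1b value rests on a KO-4weeks 1 level of 0.336 CPM, under that library's floor of 3 counts (0.535 CPM).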

How the results depend on the processing

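Counts of ordered genes (72 higher and 79 lower) depended on how many livers had to be in order. They were 138 higher without the filter on low counts, 484 and 552 without a minimum difference, 161 and 212 with the 4-week groups alone, 505 and 608 with the 8-week group alone, and 204 and 234 without KO-4weeks. Leaving out 1 library gave 72 to 205 higher and 83 to 279 lower, widest without WT-4weeks 1, and above 1.5 times the full count also without WT-4weeks 2 (122 lower), KO-4weeks 1 (126 and 150) and KO-8weeks 2 (109 and 164). Fewer groups or livers leave fewer orders to meet. The joint interaction, with 0 genes by edgeR, gave 1189 without the filter, 414 by DESeq2, 579 at 4 weeks alone and 0 to 638 with 1 library left out. The slope (918 positive and 1086 negative) gave 1281 and 1815 by DESeq2, 506 and 568 without KO-8weeks 3 and 4, 1589 and 380 with library totals, 0 and 0 with either age alone or without both 20-month livers of highest Arntl, and 177 to 1022 and 164 to 1439 with 1 library left out. Slopes turned positive in the 8-week livers alone for Per2 (0.181), Ciart (0.271), Nr1d2 (0.0184), Upp2 (0.127) and Alas1 (0.0582), and without both 20-month livers for Ciart (0.063), Upp2 (0.125) and Alas1 (0.0336). KO against WT (726 higher and 758 lower) gave 1257 and 1314 without the filter, and 117 to 1378 and 124 to 1314 with 1 library left out, each of the 6 moving it by over 1.5 times. Except where a setting tests fewer livers, the cause was not tested.

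Replicate numbers did not pair the 4-week samples: deviations of same-numbered WT and KO livers correlated at -0.0514, 0.0144 and 0.0262, and not every sample correlated best with its own number. With the replicate block, KO against WT gave 268 higher and 322 lower. The high-minus-low difference turned there for Btc (-0.99), Gadd45b (-1.02), Marveld1 (0.25), Nrep (0.85) and Tsku (1.72). In that block every replicate 1 liver is high, and KO-8weeks 5 and 6 each have a term of their own. Class is then told from replicate only through KO-8weeks 2, so these values are not a reading of all the split livers. Depth at 4 weeks limits genes under about 0.546 CPM, as Npas2.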
